A study of Asparagus officinalis with 3 samples.

Results

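The miR396 family of garden asparagus (Asparagus officinalis) was examined in 1 small RNA library of male plants and 1 of female plants. Its members were all listed sequences that the authors assigned to miR396, which came to 16 of the 194 listed miRNAs. The target unigenes listed for these members, 29 unigenes in 50 miRNA and unigene pairs of 463 in all, were described beside them. The plants were 3 years old and grown in a green house. Within each sex, RNA of the leaves, roots, stems and flowers was mixed in equal amounts before the small RNAs were isolated. With 1 library per sex, the differences between the libraries had no replicate check, no p-value was computed, and sex cannot be told apart from the library or from the plants that were pooled. A larger value can likewise stand for more miR396 in each cell or for more of the cells or organs that hold it, and these cannot be told apart in pooled organs. The labelled sex and organs were not checked against markers.

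MicroRNA396 is one of the old and widely shared miRNA families of land plants. The mature miRNA is cut from the 5′ arm (5p) of a hairpin precursor, and the strand that pairs with it comes from the 3′ arm (3p). In Arabidopsis and rice, miR396 guides the cleavage of mRNAs of growth-regulating factors (GRFs), plant transcription factors that promote cell division in leaves, flowers and grains. The miRNA pairs with the part of the GRF mRNA that encodes the conserved WRC domain. In Arabidopsis the pairing leaves 1 base of the mRNA unpaired, as a bulge opposite the 5′ part of the miRNA. The bases from 2 to 8 of a miRNA, counted from its 5′ end, are called the seed.

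The sequences of 8 members of the 5p arm are shown because the results turn on how they differ, with bases 2 to 8 in capitals.
aof-miR396b-2: uUCCACAGcuuucuugaacug
aof-miR396b-3: uUCCACGGcuuucuugaacug
aof-miR396a-5p: uUCCACAGcuuucuugaacu
aof-miR396c: uUCCACGGcuuucuugaacu
aof-miR396b-5: uCCACAGCuuucuugaacug
aof-miR396k: uCCACGGCuuucuugaacug
aof-miR396g: uUCCACAGccuucuugaacug
aof-miR396f: uCCACAGGcuuucuugaacug
The first pair, of 21 nt, differed by the substitution A7G, with positions counted from the 5′ end of aof-miR396b-2. The 2 pairs of 20 nt held the same difference, since aof-miR396a-5p and aof-miR396c lacked the last base of the 21-nt pair, and aof-miR396b-5 and aof-miR396k lacked the first. Sequences with A at this base are called the A form here (8 members) and those with G the G form (4 members). aof-miR396g differed from aof-miR396b-2 by U10C. aof-miR396f matched aof-miR396b-5 apart from 1 extra G within its seed, and belonged to neither form.

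The 3p arm was represented by 3 members, of which 1 carries 3p in its name and 2 were placed by their sequence. They are shown because all 3 overlap, with bases 2 to 8 in capitals.
aof-miR396a-3p: uUCAAUAAagcugugggaga
aof-miR396d: gUUCAAUAaagcugugggaga
aof-miR396b-1: gUUCAAUAaagcugugggaaa
aof-miR396d was aof-miR396a-3p with 1 more base at its 5′ end. Over the whole family, 14 of the 16 members began with U, and 5 were of 20 nt, 9 of 21 nt and 2 of 22 nt. The 13 members of the 5p arm had 5 different seeds. The seed of aof-miR396b-2 was shared by 6 members, and the seeds of aof-miR396b-3, aof-miR396b-5 and aof-miR396k were shared by 2 members each. The seed of aof-miR396f was its own. No member shared a stretch of 16 nt or more with a listed miRNA of another family.

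Values were deposited in TPM, which here means the reads of a sequence scaled to the size of its library, without division by length. The values rose in even steps. Of the values above 0, 99.5% of 194 in the male library and 99.5% of 193 in the female library were whole multiples of 1 step within 0.0051 TPM. Taking each step as 1 read gives library totals of 6374760 for the male and 4373631 for the female. By this reading, 5 TPM stands for 31.9 reads in the male library and 21.9 reads in the female library. In each library, this total lies above the paper's final clean reads and below its clean reads before rRNA removal. The reason was not tested. Exact (Clopper-Pearson) 95% intervals of the ratios below rest on this reading of the steps. They cover counting error only, and hold nothing of the variation between plants or library preparations. Over the 193 miRNAs above 0 in both libraries, the median log2 ratio of male over female was -0.18. Log2 ratios in this text thus sit 0.18 below what they would be relative to the median miRNA.

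The miR396 family was the family with the second highest summed value in each library. Its members summed to 6013 TPM in the male library and 4836 TPM in the female library, which was 11.8% of all listed miRNA in the male library and 8.51% in the female library. The log2 ratio of the sums was 0.31, with a counting interval of 0.29 to 0.34. In the male library the members lay between 6.12 and 3262 TPM with a median of 13.6 TPM, and in the female library between 1.83 and 2437 TPM with a median of 10.2 TPM. The family therefore held very unequal members. The 2 most abundant, aof-miR396b-2 and aof-miR396b-3, made up 95.9% of the family's value in the male library and 96.2% in the female library. The remaining 14 members summed to 249 TPM in the male library and 185 TPM in the female library.

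**Figure D1:**
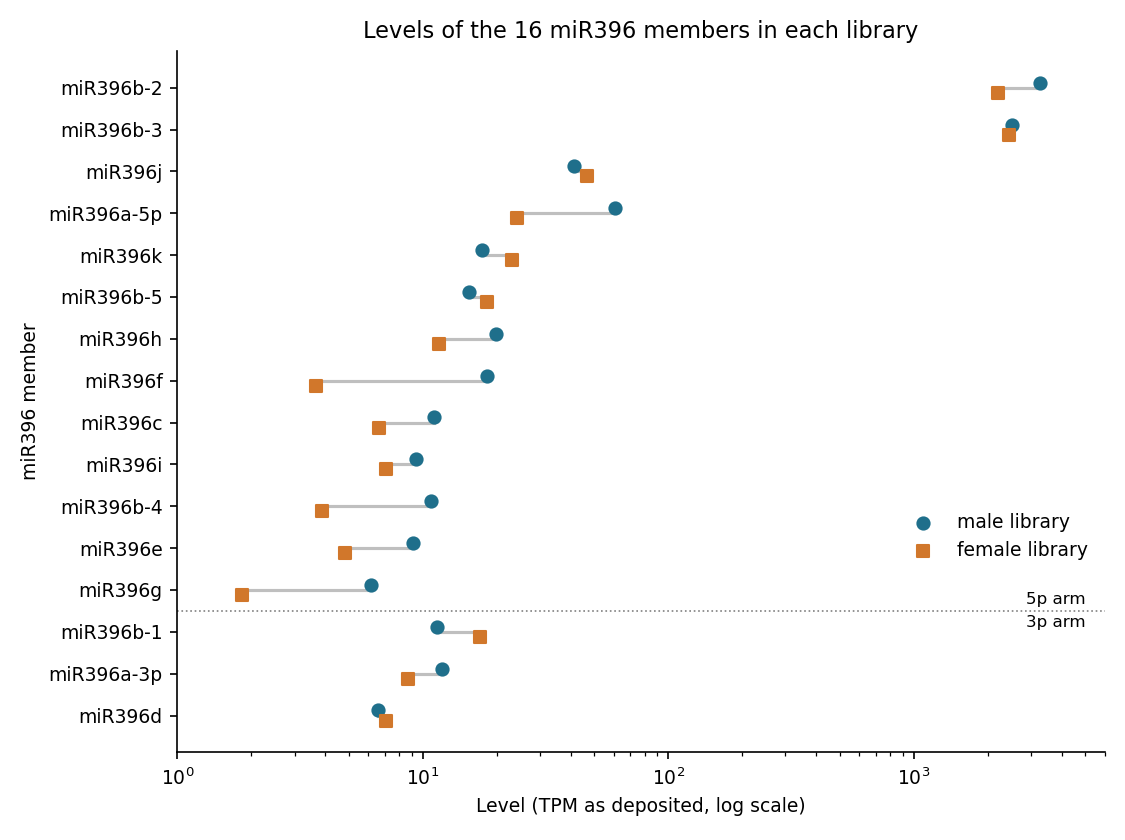
Level of each miR396 member in TPM (log scale) in the male library (circles) and in the female library (squares), with 5p-arm members above the dotted line and 3p-arm members below it. The 2 most abundant members lie above 1000 TPM in both libraries and all others below 100 TPM, and 11 of the 16 circles lie to the right of their square.

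aof-miR396b-2, the main A form, had 3262 TPM in the male library and 2214 TPM in the female library. This was a ratio of 1.47 (counting interval 1.44 to 1.51). aof-miR396b-3, the main G form, had 2502 TPM in the male library and 2437 TPM in the female library, a ratio of 1.03 (counting interval 1.002 to 1.052). The order of these 2 sequences thus differed between the libraries: the A form led in the male library and the G form in the female library. The A form made up 56.6% of this pair in the male library and 47.6% in the female library. Most of the family's difference lay in the 1 sequence aof-miR396b-2. Without it, the log2 ratio of the summed family was 0.07, against 0.31 with it.

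The minor sequences did not all follow the 21-nt pair. In the pair without the last base, aof-miR396a-5p had 60.55 TPM in the male library and 24.24 TPM in the female library, while aof-miR396c had 11.14 TPM in the male library and 6.63 TPM in the female library. The A form was 84.5% of that pair in the male library and 78.5% in the female library. In the pair without the first base, aof-miR396b-5 had 15.37 TPM in the male library and 18.29 TPM in the female library, and aof-miR396k had 17.41 TPM in the male library and 23.09 TPM in the female library. Here the A form took 46.9% in the male library and 44.2% in the female library. The share of the A form was thus somewhat higher in the male library in both 20-nt pairs. The members aof-miR396j (A form) and aof-miR396e (G form), which start 1 base later and also differ from each other at the last base, went the other way. aof-miR396j had 41.1 TPM in the male library and 46.64 TPM in the female library, and aof-miR396e had 9.1 TPM in the male library and 4.8 TPM in the female library. Of these 2 members, the A form took 81.9% in the male library and 90.7% in the female library.

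The difference of the log2 ratios, A form minus G form, was 0.52 in the 21-nt pair, with an approximate 95% counting interval of 0.47 to 0.57. It was 0.57 (-0.12 to 1.27) in the pair without the last base and 0.16 (-0.42 to 0.73) in the pair without the first base, so that neither 20-nt pair differed beyond counting error. In aof-miR396j and aof-miR396e it was -1.10 (-1.87 to -0.34). The difference between the forms thus rested on the 21-nt pair, which also sets the value of 0.52 over the sums of all 8 A form and 4 G form members. A ratio of forms within a library does not depend on how the library was scaled. The pairs come from the same 2 libraries and are not replicates of a sex.

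**Figure D2:**
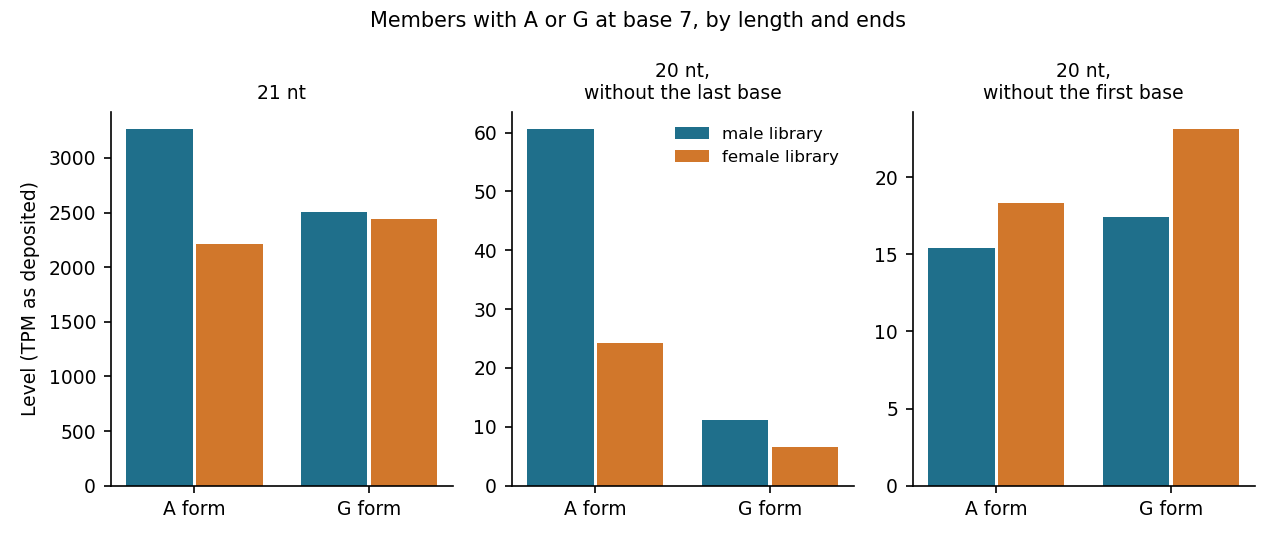
Level in TPM (linear axis from 0, with its own range in each panel) of the A form and the G form in the male library (left bar) and the female library (right bar), for the 21-nt pair, the 20-nt pair without the last base and the 20-nt pair without the first base. The A form of 21 nt stands at 3262 TPM in the male library and 2214 TPM in the female library, while the bars of its G form are nearly level. There is 1 library per sex, so no error bars are drawn. The members aof-miR396j and aof-miR396e, whose difference went the other way, are not drawn.

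Of the 16 members, 4 (25%) exceeded 2-fold with the male value on top, and 0 did so with the female value on top. Over all 194 listed miRNAs, 30.9% were over 2-fold apart, 12.9% with the higher value in the male library and 18.0% with the higher value in the female library. Among the other listed miRNAs whose higher value lay from 10 to 100 TPM, 10 of 82 (12.2%) exceeded 2-fold in the male direction, against 3 of 10 miR396 members in that range. At any ratio, 11 of the 16 members (68.8%) were higher in the male library, against 42.3% of all listed miRNAs. The median log2 ratio of the members was 0.51, and that of the listed miRNAs above 0 in both libraries -0.18. Listed sequences had to reach 5 TPM in either library. In the female library 4 members lay under 5 TPM, and in the male library 0. These 4, among them aof-miR396f, aof-miR396g and aof-miR396b-4, were listed only through their male value, which fixed their direction. The shares above describe the 2 libraries, and many of the members are near copies of each other. Sequences that differed by 1 substitution or only at their ends from the most abundant member of a group were merged into that group. The 16 members then became 5 groups, of which 1, aof-miR396f alone, exceeded 2-fold in the male direction. Sequences were not compared with the lower members of a group, so near copies such as aof-miR396a-3p and aof-miR396d stayed apart.

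The 4 members over 2-fold apart were minor sequences. aof-miR396f had 18.2 TPM in the male library and 3.66 TPM in the female library, a ratio of 4.97 (counting interval 2.94 to 8.99). If a step is a read, these values stand for 116 reads in the male library and 16 reads in the female library. The paper also measured aof-miR396f by qRT-PCR in flower buds, not in the pooled organs. It reports a higher level in male than in female buds at the middle bud size. aof-miR396a-5p, the A form without the last base, had the lowest ratio of the 4, at 2.498 (counting interval 2.01 to 3.13). These 2 members were the ones whose whole counting interval lay above 2.

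aof-miR396g had 6.12 TPM in the male library and 1.83 TPM in the female library, a ratio of 3.34 (counting interval 1.54 to 8.29). By the same reading of the steps it rests on 39 reads in the male library and 8 reads in the female library. aof-miR396b-4, which differs from aof-miR396b-2 by G21U, had 10.82 TPM in the male library and 3.89 TPM in the female library, a ratio of 2.78 (counting interval 1.62 to 5.05). With 5 TPM added to both values, the log2 ratio of aof-miR396g was 0.70 and that of aof-miR396b-4 was 0.83, and neither was over 2-fold. Both are single-base variants of aof-miR396b-2 at a very low share of it. aof-miR396g reached 0.188% of aof-miR396b-2 in the male library and 0.0827% in the female library, and aof-miR396b-4 0.332% in the male library and 0.176% in the female library. Whether these 2 sequences came from loci of their own was not tested.

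**Figure D3:**
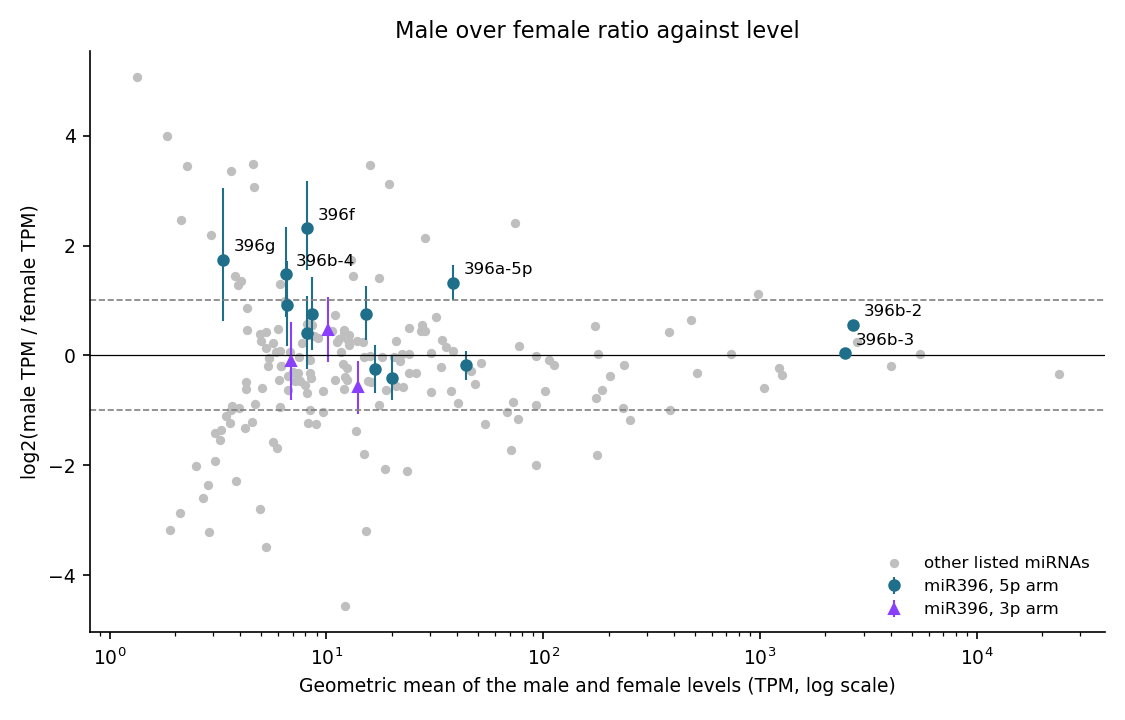
Log2 ratio of the male over the female value against the geometric mean of both values (TPM, log scale) for miR396 members of the 5p arm (circles), of the 3p arm (triangles) and the other listed miRNAs above 0 in both libraries (grey). Bars are 95% counting intervals and dashed lines mark 2-fold, with the 4 members over 2-fold and the 2 most abundant members named; the bars of the low members are wide, and aof-miR396f at 2.31 is the highest of the members.

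The other members of the 5p arm were less than 2-fold apart. aof-miR396h and aof-miR396i, which are aof-miR396b-2 with 1 more base at the 3′ end, had 19.77 and 9.41 TPM in the male library against 11.66 and 7.09 TPM in the female library. aof-miR396e, at the values given above, had a ratio of 1.90 and aof-miR396j a ratio of 0.881. aof-miR396j was the third most abundant member in the female library, while aof-miR396a-5p held that place in the male library. The counting intervals of aof-miR396i, aof-miR396j and aof-miR396b-5 included a ratio of 1.

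The 3 members of the 3p arm summed to 29.96 TPM in the male library and 32.93 TPM in the female library, a log2 ratio of -0.14 (counting interval -0.46 to 0.19). They made up 0.498% of the family in the male library and 0.681% in the female library, so that nearly all of the family's value came from the 5p arm in both. aof-miR396b-1 had 11.45 TPM in the male library and 17.15 TPM in the female library, a log2 ratio of -0.58 (counting interval -1.07 to -0.10). aof-miR396a-3p had 11.92 TPM in the male library and 8.69 TPM in the female library. aof-miR396d had 6.59 TPM in the male library and 7.09 TPM in the female library, a log2 ratio of -0.11. This ratio became 0.07 when the male values were rescaled by the median ratio of the listed miRNAs above 0 in both libraries. The 3p members therefore did not all share the direction of aof-miR396b-2, and the counting intervals of aof-miR396a-3p and aof-miR396d both included a ratio of 1.

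Sequences shortened by 1 base were then set against their longer sequence within each library, which removes the scaling of the libraries. This comparison was chosen after the values had been seen. Only pairs within 1 family whose shorter sequence had the lower value in both libraries were kept. Without the last base, aof-miR396a-5p was 1.86% of aof-miR396b-2 in the male library and 1.09% in the female library, and aof-miR396c was 0.445% of aof-miR396b-3 in the male library and 0.272% in the female library. The ratio of male over female was 1.70 for the A form and 1.64 for the G form. Without the first base, the direction was the opposite in both forms. aof-miR396b-5 was 0.471% of aof-miR396b-2 in the male library and 0.826% in the female library, and aof-miR396k was 0.696% of aof-miR396b-3 in the male library and 0.948% in the female library. In a further pair without the last base, aof-miR396b-5 was 37.4% of aof-miR396j in the male library and 39.2% in the female library. Other miR396 pairs were left out because the shorter sequence had the higher value. Without the first base, aof-miR396a-3p relative to aof-miR396d was higher in the male library, and aof-miR396j relative to aof-miR396i was lower. Without the last base, aof-miR396a-5p relative to aof-miR396b-4 was lower in the male library. So were aof-miR396b-2 relative to aof-miR396h and aof-miR396k relative to aof-miR396e, while aof-miR396b-2 relative to aof-miR396i was higher.

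Other families were measured in the same way, and the direction without the first base was not confined to miR396. All 12 kept pairs of 7 other families in which the shorter sequence lacked the first base had a lower share in the male library. Their log2 ratios ran from -1.28 to -0.11, against -0.81 and -0.45 in the kept miR396 pairs. Of 21 kept pairs of other families in which the shorter sequence lacked the last base, 14 had a higher share in the male library and 7 a lower one. Their median was 0.17. Pairs of other families that were left out by the same rule are not described here, and may differ in direction. The pairs share libraries and, in places, sequences. The cause was not tested.

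**Figure D4:**
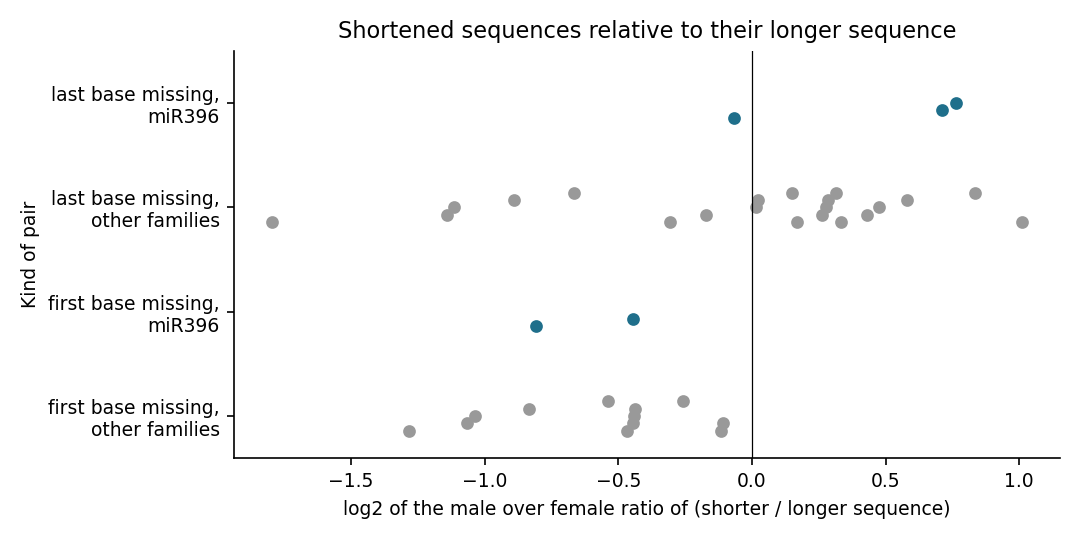
Log2 of the male over female ratio of the shorter sequence's share of its longer sequence, 1 point per pair, for pairs in which the last or the first base is missing, in miR396 (blue) and in other families (grey). Only pairs whose shorter sequence had the lower value in both libraries are drawn. All 14 of these pairs without the first base lie to the left of 0, while those without the last base lie on both sides.

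Precursors were taken from the study's list of hairpins, found in the rice (Oryza sativa) genome. Of the 16 members, 8 had a listed precursor. For 1 of these, aof-miR396k of the G form, none of its listed precursors held its own sequence. 2 hairpins are shown because they hold the most abundant A form with its 3p partner and the member with the highest ratio. Members are in capitals.
Hairpin of aof-miR396b-2 and aof-miR396b-1: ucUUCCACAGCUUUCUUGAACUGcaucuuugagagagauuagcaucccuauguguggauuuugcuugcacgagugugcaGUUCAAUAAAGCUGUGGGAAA
Hairpin of aof-miR396f: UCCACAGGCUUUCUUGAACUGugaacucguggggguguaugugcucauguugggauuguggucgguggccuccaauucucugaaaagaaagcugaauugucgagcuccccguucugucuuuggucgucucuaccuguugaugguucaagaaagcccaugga
The first, of 100 nt, folded at -43.4 kcal/mol, with 20 of the 21 bases of aof-miR396b-2 and 18 of the 21 bases of aof-miR396b-1 paired. The second, of 161 nt, folded at -56.4 kcal/mol, with 19 of the 21 bases of aof-miR396f paired. No other member was found in the hairpin of aof-miR396f. The extra G that sets aof-miR396f apart is thus also present in a rice sequence, whereas the substitution of aof-miR396g was found in none of the 9 different precursor sequences listed. Of the A form members, 6 of 8 occurred in at least 1 of these precursors, and of the G form members 0 of 4. The study aligned sequences to the rice genome with perfect matches, so a listed precursor tends to hold its member by the way it was found. aof-miR396g, aof-miR396b-3, aof-miR396c and aof-miR396e had no listed precursor. These counts therefore partly restate which members had one. These are rice sequences, and asparagus loci of miR396 were not analysed here.

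The target table gave 50 pairs of 13 members with 29 unigenes, and 3 members (aof-miR396b-1, aof-miR396h and aof-miR396i) had no pair. These pairs are scored alignments, and cleavage of the unigenes was not analysed here. The paper's degradome analysis names further unigenes for miR396 members, such as UN14593 and UN27824, that are not among the 29. By 5′ RLM-RACE, which maps cut ends of mRNAs, the paper reports growth-regulating factor mRNAs cut by miR396f, and describes its degradome data as matching. These mRNAs carry numbers of another unigene set and were not matched here to the listed unigenes. Each pair has a score in which a lower value stands for closer pairing. A penalty of 1 for a mismatch, 0.5 for a G:U pair and 2 for a base left unpaired gave the listed score in 463 of 463 pairs of the table, of which 3 was the highest score. The description of 2 unigenes named a growth-regulating factor in words: UN12031, like factor 14 of maize, and UN16563, like factor 3 of rice. UN02474 was described as a GRF domain transcription factor of apple, and UN23164, UN04890 and UN38955 as GRL2 of Medicago truncatula. These 4 are counted with the GRFs here, which makes 6 of 29 unigenes (20.7%). The wider grouping was chosen after the pairs had been seen. No other family was listed for any of the 6.

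All 6 of these unigenes were listed for aof-miR396f, and they were the only unigenes of the family with a score of 2 or lower. Their sites are shown because the scores were computed from them, with the base in capitals that stays unpaired with aof-miR396b-5.
Site of UN12031, UN23164, UN04890, UN16563 and UN38955: ccguucaagaaagcCugugga
Site of UN02474: ucguucaagaaagcUugugga
The first site was the same in all 5 unigenes, from base 565 to 585 of UN12031, 97 to 117 of UN23164 and 101 to 121 of UN04890 on the plus strand, and from 421 to 401 of UN16563 and 189 to 169 of UN38955 on the minus strand. Positions within a site are counted from its 5′ end. UN02474, at 864 to 884 on the plus strand, differed from the first site by C1U and C15U. The extra G of aof-miR396f paired with the capital C of the first site, so that 20 bases paired with 1 mismatch and no bulge (score 1). On UN02474 it formed 1 of 2 G:U pairs (score 2).

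The abundant members paired with the same site less closely by this score. aof-miR396b-2 and aof-miR396b-3 paired with UN16563 and UN38955 with 20 paired bases, 1 mismatch and 1 unpaired base of the unigene (score 3). In the A form the unpaired base was the C at position 15 of the site, and in the G form the base after it. The forms therefore had the same score. On UN16563, aof-miR396f, aof-miR396b-2 and aof-miR396b-3 all placed base 410 of the unigene opposite position 10 of the miRNA, next to which plant miRNAs cut their targets, and aof-miR396b-5 and aof-miR396k placed base 411 there. In all, 8 members were listed for at least 1 GRF unigene, and they held 98.1% of the family's value in the male library and 97.8% in the female library. aof-miR396f, with the closest pairing, was 0.309% of the value of these 8 in the male library and 0.0774% in the female library.

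**Figure D5:**
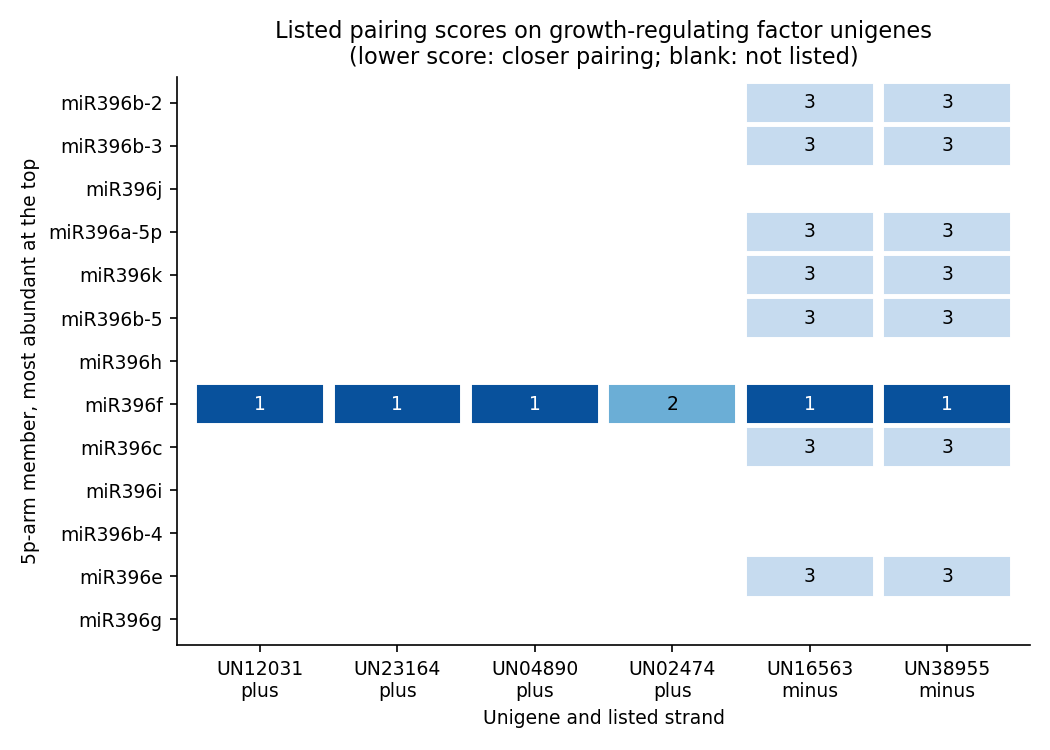
Listed pairing scores of the 13 members of the 5p arm, the most abundant at the top, on the 6 GRF unigenes, with the strand of each site. aof-miR396f fills its row with scores of 1 and 2, 7 other members have a score of 3 on the 2 minus-strand unigenes, and blank cells are pairs that are not listed.

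The other 5 members of the 5p arm had no listed GRF pair. When the same penalties were applied to the 23 bases of UN16563 that the pairs give (422 to 400), aof-miR396g, aof-miR396h, aof-miR396i, aof-miR396j and aof-miR396b-4 each had a lowest penalty of 4, above the highest score in the table. For the 8 listed members, the lowest penalty equalled the listed score. On this site, the 5 members without a GRF pair thus lay 1 penalty point past the limit of the listed scores.

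Outside the GRFs, 14 unigenes of the 5p arm and 9 of the 3p arm were listed, each with a score of 2.5 or 3, and no unigene was shared between the arms. At 2.5 in the 5p arm were UN19585, like neutral ceramidase, an enzyme that splits ceramide, which was listed for aof-miR396b-5 and aof-miR396j, and UN28558, without a database hit, for aof-miR396c. UN28558 was also listed for aof-miR396b-3, at 3. UN05990, like the chaperone BiP of the endoplasmic reticulum, was listed at 3 for the 3 G form members aof-miR396k, aof-miR396c and aof-miR396b-3. UN43319, like an HIPL1 protein, was listed at 3 for aof-miR396a-5p and aof-miR396b-4. Unigenes listed for aof-miR396a-5p alone were like Barley B recombinant (UN04493), ankyrin-1 (UN09299) and a CCCH zinc finger protein (UN13476). Those for aof-miR396k alone included UN19122, like a hypersensitive-induced response protein, and UN23662, like an AAA domain ATPase.

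In the 3p arm, aof-miR396a-3p had 9 unigenes. At 2.5 were UN13228, like a poly(U)-specific endoribonuclease, and UN49061, like villin, a protein that bundles actin filaments. At 3 were UN01094 and UN00925, both like regulatory subunits of the 26S proteasome, and UN07133 (TIC 20-I, of the chloroplast envelope), UN28514 (a ubiquitin hydrolase) and UN48428 (glutaredoxin-S17). UN49061 was also the 1 unigene of aof-miR396d. aof-miR396g was listed for 1 unigene without a database hit, UN10719. No expression values of unigenes were analysed here, so levels of miR396 and of its targets were not compared. By qRT-PCR in flower buds, the paper reports a negative correlation between aof-miR396f and its predicted targets.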

How the data were processed

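Male and female small RNA libraries (1 each) were compared; a degradome library of both sexes was not analysed here. The authors trimmed reads, removed structural RNAs, matched sequences to miRBase 21, and deposited RPM values, which they call TPM, for 20 to 24 nt RNAs that reached 5 TPM in either library. They named psRNATarget for target prediction; the deposited target table holds an alignment and a score per pair. Ratios of male over female were computed without a pseudocount. No count test was run. Reads for counting intervals were taken from the steps of the values (tolerance 0.0051 TPM). Sites were rescored with a mismatch, G:U and gap penalty. Precursor sequences came from the study's supplementary list and were folded with RNAfold 2.7.2. Named were all members, all GRF unigenes, unigenes with the lowest score of a miRNA or a description, and the 3 families nearest in summed ratio. Members and lists were chosen with earlier results of these data known. Steps were tested on simulated data. Alternatives included adding 1 or 5 TPM, requiring 10 TPM, 2 rescalings, a 3-fold threshold, merging and leaving members out. Python 3.11.15, numpy 2.4.6, scipy 1.17.1 and matplotlib 3.10.9 were used.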

Additional observations from a re-analysis of the deposited data

How the results depend on the processing

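The 4 members over 2-fold higher in the male library became 2 with 5 TPM added (aof-miR396g and aof-miR396b-4 were lost), 2 at a 3-fold threshold and 1 after merging of near-identical sequences, and 3 to 5 under the other alternatives. The log2 ratio of the summed family was 0.49 after rescaling by the median ratio, 0.47 after rescaling by the summed values, 0.0697 without aof-miR396b-2 and 0.43 without both members above 1000 TPM. The median of the members lay between 0.31 and 0.75. The A form minus G form difference of 0.52 was 0.40 over members under 1000 TPM and -1.105 for aof-miR396j against aof-miR396e. Over both 20-nt pairs summed it was 0.89, above the 0.57 and 0.16 of the single pairs, because the A sum is mostly the pair without the last base and the G sum mostly the pair without the first. Of the 29 target unigenes, 10 remained at a score of at most 2.5 and 6 at a score of at most 2, all 6 counted as GRFs; 2 GRFs remained with the stricter wording. The score limits, the wording, the shifted pair and the members under 1000 TPM were chosen after seeing the data. Of 76 member values under alternatives, 5 left the counting interval of their member. The log2 ratio of aof-miR396b-2 rose from 0.56 to 0.74 and 0.72 under the median and sum rescalings. That of aof-miR396b-3 rose from 0.04 to 0.21 and 0.20. With 5 TPM added, that of aof-miR396f fell from 2.31 to 1.42. The sign changed in 1 member, aof-miR396d, under both rescalings. No paired analysis was possible because each sex has 1 library. Depth limits members near 5 TPM most.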

Other observations

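The 3 families whose summed log2 ratio lay nearest to that of miR396 (0.31) were miR477 at 0.31, miR157 at 0.27 and miR482 at 0.37, each with 1 member. miR477 had 10.2 TPM in the male library and 8.23 TPM in the female library, miR157 22.9 TPM in the male library and 18.98 TPM in the female library, and miR482 14.43 TPM in the male library and 11.2 TPM in the female library. Likeness was taken over 2 libraries only.

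The site of 21 nt was the same in 3 plus-strand and 2 minus-strand GRF unigenes, but members other than aof-miR396f were listed for the minus-strand unigenes alone. By the same penalties, aof-miR396b-5 and aof-miR396k score 3 on these 21 bases in every unigene that holds them, which is within the limit of the table. The cause was not tested. A count of GRF unigenes per member read from the table is therefore lower for these 2 members (2 each) than the letters of the site allow (5 each).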
